A study of Brassica napus with 6 samples.

Results

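The most abundant transcripts of the rapeseed shoot apex were described as the 70 genes with a mean of 500 CPM or more over 6 libraries, where CPM is the count of a gene divided by the total of its library and multiplied by 1000000. Genes of chromosomes C03 and A09 and of unplaced scaffolds were left out, so the 70 were drawn from 79897 of the 100194 rows of the count table. A further 12 rows reached 500 CPM among those left out, 6 on C03, 4 on A09 and 2 on scaffolds. The members were chosen by their mean level in these same libraries, so their level, and the share of counts that follows from it, are given as a description and without a test.

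Rapeseed (Brassica napus) carries 2 ancestral genomes, called the A and the C subgenome, so that many of its genes exist as a pair of closely related copies, called homoeologs, one in each subgenome. The shoot apex holds the meristem that forms leaves and, after the floral transition, the inflorescence. LEAFY is a transcription factor that gives floral meristems their identity. Transcripts at the top of the range in dividing plant tissue commonly come from genes of basic cell upkeep, such as translation and chromatin. A few such transcripts can take a visible share of all reads of a library, and since reads are counted against a fixed total, a larger share for one gene leaves less for the others.

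The series compared BnaC3.lfy△I2, a rapeseed line in which intron 2 of the C3 copy of LEAFY is deleted (below, the mutant), with its wild type, the cultivar Westar, in 3 libraries each. All 6 libraries were made from polyadenylated RNA of shoot apices of plants grown in a chamber. The age of the plants, the number of plants or of independent lines behind a library and how the deletion was made are not stated in the labels. The p-values therefore set the difference between the genotypes only against the spread between these libraries, and that spread may be technical. The libraries held 15922207 to 23261028 counts in genes, and every member had between 7455 and 193477 counts in every library. The IDs carry a chromosome and a running number but no gene name, and 0 of the 100194 matched the RefSeq gene table of the Da-Ae assembly. No member can therefore be given a function, the edited LEAFY copy could not be checked in the libraries, and neither could the tissue by its marker genes. Gene lengths were not used here either, so the order of the members is one of read counts and not of molecules, and a long transcript ranks higher than a short one of the same abundance. In bulk tissue, fewer cells that express a gene and less RNA per cell cannot be told apart.

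A pair of genes on the chromosomes numbered 6 led the list. BnaA06T0017600WE, on A06, had 10560, 7130 and 7041 CPM in mutant libraries 1, 2 and 3, against 4899, 9344 and 7030 CPM in Westar libraries 1, 2 and 3. It was first in each of the 6 libraries. Mutant library 1 and Westar library 2 were high and Westar library 1 was low, and the groups overlapped. Its mean was 8244 ± 2007 CPM in the mutant and 7091 ± 2223 CPM in Westar (SD, n = 3 each), with a log2 fold change of 0.25 ± 0.25 (SE; edgeR adjusted p = 0.746).

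BnaC06T0057000WE, on C06, had 6556, 4326 and 4432 CPM in the mutant libraries and 2786, 5817 and 4315 CPM in the Westar libraries. The same libraries were high and low as for the leading gene, and the groups overlapped again (log2 fold change 0.28 ± 0.27, edgeR adjusted p = 0.735).

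The third to sixth members varied less. BnaC06T0051900WE had 4324, 3335 and 3473 CPM in the mutant and 3910, 4689 and 3533 CPM in Westar. BnaA05T0164900WE had 3235, 2594 and 2965 CPM in the mutant and 2538, 3400 and 3114 CPM in Westar. BnaA06T0020000WE had 3350, 2386 and 2578 CPM in the mutant and 2605, 3545 and 2634 CPM in Westar. In these 3 genes the groups overlapped and the log2 fold changes lay between -0.08 and 0. The fourth member, BnaA01T0039700WE, was the one among the first 6 whose groups did not overlap, and it is described with the comparison of the genotypes.

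**Figure D1:**
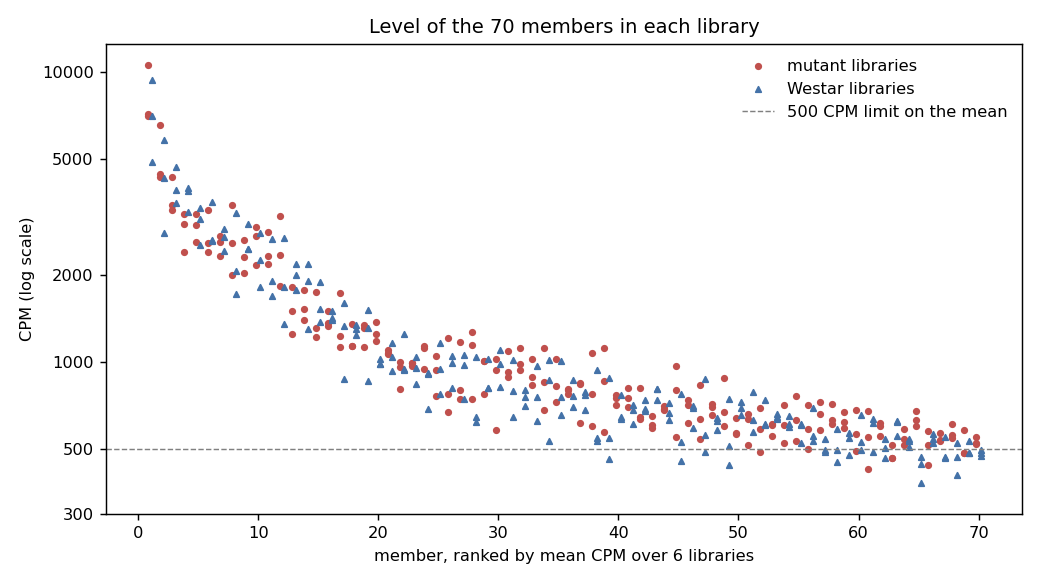
CPM of each of the 70 members (log scale) in the 3 mutant libraries (red circles) and the 3 Westar libraries (blue triangles), with members ranked by their mean and the 500 CPM limit as a dashed line. The leading gene reaches 10560 CPM in mutant library 1, and mutant and Westar points intermix along most of the ranks.

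The lists of single libraries were largely made up of members. Of the 70 genes highest in a single library among the rows eligible, 63 to 68 were members. Each library had a part in the mean that chose the members, so part of this overlap follows from the rule. The 70 highest by mutant mean and the 70 highest by Westar mean, which rest on separate libraries, shared 65 genes. At least 500 CPM was reached by 72 genes in the mutant mean and by 68 in the Westar mean, with 65 in both. In every one of the 6 libraries 52 members reached 500 CPM, the other 18 fell below it in at least 1 library, and 0 fell below 250 CPM in any. The 2 members just inside the limit, BnaC04T0593400WE and BnaA02T0033600WE, averaged 510.6 and 510.3 CPM. The 2 genes just outside it, BnaA08T0113900WE and BnaA08T0280600WE, averaged 495.7 and 494.4 CPM.

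Together the members took 9.81%, 7.89% and 8.83% of the counts in mutant libraries 1, 2 and 3, and 7.59%, 9.68% and 8.26% in the Westar libraries. The means were 8.84% ± 0.963 in the mutant and 8.51% ± 1.06 in Westar (SD, n = 3 each), so the genotypes differed by less than the spread within either. The difference, mutant minus Westar, was 0.335 percentage points. It became -0.151 points without mutant library 1 and -0.126 points without Westar library 1. Without mutant library 2 it was 0.812 points, without Westar library 2 it was 0.918 points and without Westar library 3 it was 0.211 points. The library with the lowest share, Westar library 1, was also the one with the most counts, and the part of depth in this was not tested.

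The 10 leading members alone took 4.22%, 3.13% and 3.39% of the counts in the mutant libraries and 2.90%, 4.20% and 3.41% in the Westar libraries. The other 60 took 5.60%, 4.76% and 5.44% in the mutant libraries and 4.69%, 5.48% and 4.85% in the Westar libraries. For the leading 10, mutant library 1 and Westar library 2 stood highest, and the remaining 4 libraries were at 3.41% or below. For comparison, the 1038 eligible genes from 100 to 500 CPM took 17.7%, 17.7% and 18.2% of the counts in the mutant libraries and 17.6%, 17.5% and 17.4% in the Westar libraries. There the groups did not overlap, at means of 17.9% ± 0.270 in the mutant and 17.5% ± 0.0768 in Westar (SD, n = 3 each).

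**Figure D2:**
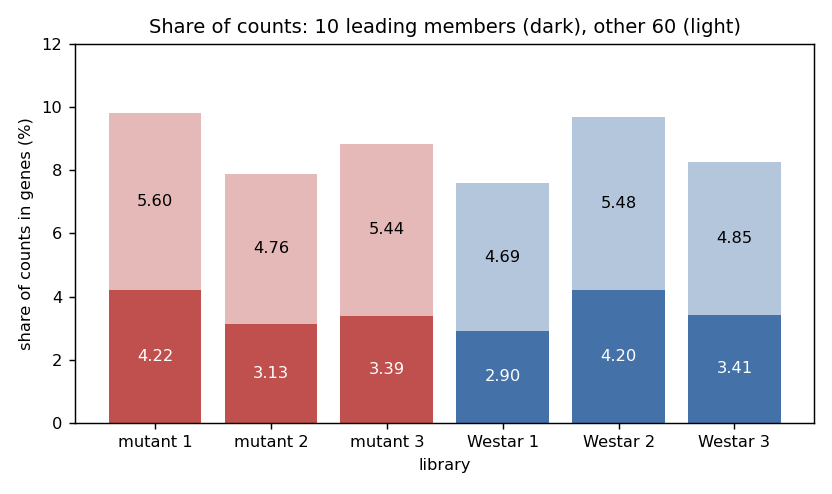
Share of all counts in genes (%, from 0) taken by the 10 leading members (dark) and the other 60 members (light) in the 3 mutant libraries (red) and the 3 Westar libraries (blue). Mutant library 1 and Westar library 2 stand highest, and Westar library 1 lowest.

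Of the 70 members, 39 lay on the A subgenome (55.7%) and 31 on the C subgenome (44.3%). Among the 40552 tested genes of the same chromosomes, 47.2% lay on A and 52.8% on C. The A members took 55.4%, 55.2% and 55.2% of the members' counts in the mutant libraries and 55.8%, 55.2% and 55.4% in the Westar libraries. The means were 55.3% ± 0.117 in the mutant and 55.5% ± 0.302 in Westar (SD, n = 3 each), and the groups overlapped. The same share over the tested genes of these chromosomes was 49.4% ± 0.346 in the mutant and 49.5% ± 0.197 in Westar. The leading genes carried the lean to A. Among members 11 to 70 the A share was 46.5% ± 0.337 in the mutant and 46.4% ± 1.35 in Westar, although 32 of those 60 genes were on A.

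Chromosome A06 held 9 members (12.9%) and C06 held 6 (8.57%), while these chromosomes held 6.45% and 6.31% of the tested genes considered. The A06 members took 22.0% of all the members' counts and the C06 members 18.2%, as means over the 6 libraries. Single genes made up much of this. The leading gene took 0.767% of the library, where all A06 members took 1.92%. BnaC06T0057000WE took 0.471%, where all C06 members took 1.58%. C04 followed with 7 members, A04 had 6, A05 and C01 had 5 each, and C07 had 1. The A06 members took 1.98% ± 0.353 of the library in the mutant and 1.85% ± 0.385 in Westar, and the C06 members took 1.62% ± 0.262 in the mutant and 1.54% ± 0.298 in Westar (SD, n = 3 each), with the groups overlapping for both chromosomes.

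Some members lay side by side by their running numbers. BnaA06T0017500WE directly preceded the leading gene, and BnaC06T0057100WE directly followed the second member. BnaA06T0007500WE and BnaA06T0007800WE were 3 numbers apart, and BnaC04T0580200WE and BnaC04T0580400WE were 2 apart. Levels ran in parallel in the first 2 of these pairs (Pearson r over 6 libraries 0.94 and 0.98 on log2 values), while r was 0.48 on A06 and -0.42 on C04 in the other 2. Near-identical neighbours can share reads, and the labels do not say how reads that map to several places were treated, so the level of single copies is uncertain.

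Some of the members varied together over the libraries. Of the 2415 pairs of members, 159 had a Pearson r of 0.9 or more. A first principal component of the members' log2 levels held 67.5% of the variance, with 49 of the 70 members weighted in the direction of the leading gene. No such share is given for other genes. The levels were not scaled to equal variance, so members with a large spread weighed most in this component. Mutant libraries 1, 2 and 3 scored 2.35, -0.74 and 0.36 on it, and Westar libraries 1, 2 and 3 scored -2.38, 1.45 and -1.03. On this component the genotypes overlapped, with mutant library 1 and Westar library 2 at one end and Westar library 1 at the other. A second component held 15.5% of the variance, and on it the genotypes did not overlap. With 3 libraries each, a component can part the groups without an effect of genotype, and no test was made. The mutant libraries scored -0.38, -1.12 and -0.54 on it, and the Westar libraries 0.22, 1.08 and 0.74. Correlations over these 6 libraries are given as a description. All values in them come from the same 6 libraries and share their totals.

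With the leading gene, 11 of the other 69 members had a Pearson r of 0.9 or more, and 0 had an r of -0.9 or less. These 11 were spread over 8 chromosomes, with 4 on A and 7 on C. Together with the leading gene they took 3.43%, 2.29% and 2.47% of the counts in the mutant libraries and 1.67%, 3.10% and 2.27% in the Westar libraries. The 11 were chosen by their r over these same libraries. Sharing the leading gene's highest and lowest libraries, and its overlap of the groups, largely follows from that choice. All 12 were lowest in Westar library 1 and 11 of them were highest in mutant library 1. Their highest library exceeded their lowest by 1.55 to 2.35 times. The groups overlapped for each of the 12, with log2 fold changes of 0.10 to 0.38 (smallest edgeR adjusted p = 0.545). The other 58 members took 6.39%, 5.60% and 6.36% in the mutant libraries and 5.92%, 6.58% and 5.99% in the Westar libraries.

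The most variable member, with the highest coefficient of variation within the groups, was BnaA04T0188600WE. It had 1121, 576 and 859 CPM in the mutant and 462, 880 and 545 CPM in Westar, a mean coefficient of variation of 33.6%. With it, 12 of the other 69 members had an r of 0.9 or more, and 7 of these were also among the 11 that followed the leading gene. Its closest likeness was BnaA03T0164100WE, at an r of 0.998 over the 6 libraries. The next most variable member, BnaA06T0330000WE, had 1075, 602 and 773 CPM in the mutant and 533, 937 and 547 CPM in Westar, at 31.7%. Both genes were highest in mutant library 1 and lowest in Westar library 1, and their groups overlapped.

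**Figure D3:**
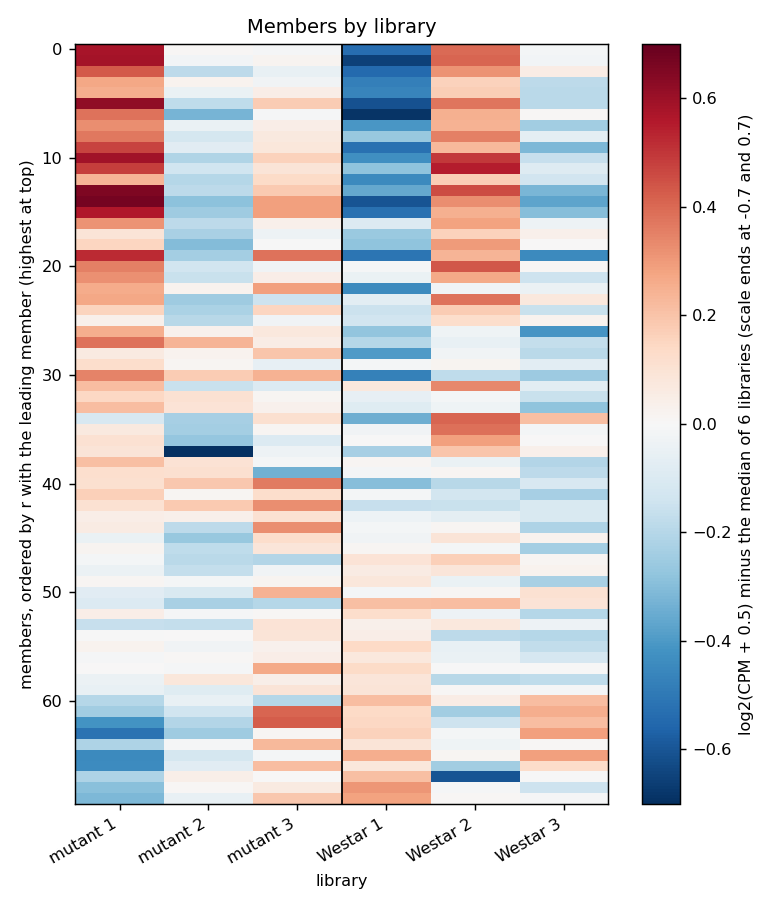
Level of each member in each library as log2(CPM + 0.5) minus the member's median over the 6 libraries, with mutant libraries left of Westar libraries and members ordered by their Pearson r with the leading gene, highest at the top. The upper rows are high (red) in mutant library 1 and Westar library 2 and low (blue) in Westar library 1, across the genotypes.

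Genes that ran most in parallel were often on opposite subgenomes. For 48 of the 70 members (68.6%) the closest other member by r lay on the other subgenome, where 50.1% of all 2415 pairs of members do. For 20 (28.6%) it lay on the chromosome of the same number in the other subgenome, where 6.21% of all pairs do. In rapeseed several chromosomes of the same number in A and C share long stretches of gene order. The IDs do not say which genes are homoeologs, pairs are not independent of each other, and no test was made. Reads that fit both copies could also give parallel levels, and their part was not tested.

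The pairs named next were chosen after their values were seen. Between BnaC06T0034600WE and BnaA06T0031800WE the ratio of CPM stayed at 1.08 to 1.12 in all 6 libraries. The C06 gene had 1100, 1062 and 1073 CPM in the mutant and 1160, 1042 and 929 CPM in Westar, and the A06 gene had 993, 971 and 994 CPM in the mutant and 1039, 951 and 840 CPM in Westar. Neither gene differed between the genotypes beyond the spread in Westar (edgeR adjusted p = 0.81 and 0.764). The leading gene and BnaC06T0057000WE kept a ratio of 1.59 to 1.76, while each varied more than 2-fold over the libraries. Lengths were not used, so these ratios show how steady the pairs were and not which copy has more molecules.

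No member changed between the mutant and Westar by the edgeR quasi-likelihood test at a Benjamini-Hochberg adjusted p under 0.05. The count was 0 of 70, against 0.194% of all 48524 genes tested, at which rate less than 1 call would fall among 70 genes. An unadjusted p under 0.05 was found for 13 members (18.6%), 9 higher and 4 lower in the mutant. The share was 11.5% among all tested genes and 17.7% among the genes from 100 to 500 CPM, close to that of the members. The smallest adjusted p among the members was 0.121. DESeq2 called 3 members, all higher in the mutant, where it called 1.33% of the 54963 genes to which it gave an adjusted p and 0.861% as higher. Limma-voom called 0 members, where it called 0.14% of all tested genes and 0.0907% as higher.

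The groups did not overlap in CPM for 16 members (22.9%), 11 higher and 5 lower in the mutant, against 18.3% of all tested genes and 26.3% of the genes from 100 to 500 CPM. The share higher without overlap was 15.7% of the members, against 6.85% of all tested genes. Overlap was judged on CPM, which is scaled by library size alone. This share is not given for the genes from 100 to 500 CPM, so whether it is particular to the members cannot be said. By log2 fold change 47 of the 70 members lay above 0, at a median of 0.09, against 50.1% of all tested genes at a median of 0.00. With library size as the sole scaling, 44 members lay above 0 at a median of 0.05, against a median of -0.04 for all tested genes. Among the genes from 100 to 500 CPM 63.9% lay above 0, at a median of 0.07. The 21 members at 1000 CPM or more had a median of -0.0027, with 10 above 0, and the 49 below 1000 CPM a median of 0.11, with 37 above 0. The median over the 70 was 0.04 without Westar library 1, 0.05 without mutant library 1 and 0.06 without Westar library 3. It was 0.15 without Westar library 2 and also 0.15 without mutant library 2, and 0.11 without mutant library 3.

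All the log2 fold changes of the members lay between -0.34 and 0.59. A change of at least 2-fold was seen for 0 members, against 2.96% of all tested genes, many of which had far lower counts. The median absolute log2 fold change was 0.157 for the members. It was 0.149 for genes from 100 to 500 CPM, 0.144 from 10 to 100 CPM and 0.226 from 1 to 10 CPM. By this measure the members did not change less than genes of the 2 classes below them. The 95% interval of the fold lay inside a 2-fold change in both directions for 68 of the 70, and over all 70 the bounds ran from 0.634 to 2.17. A p that misses the threshold does not show that a member's level was the same in both genotypes.

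BnaC09T0586400WE, on C09, had the highest log2 fold change among the members. It had 677, 600 and 630 CPM in the mutant libraries and 383, 471 and 446 CPM in the Westar libraries. All 3 mutant libraries were above all 3 Westar libraries. The mean was 636 ± 38.9 CPM in the mutant and 433 ± 45.0 CPM in Westar (SD, n = 3 each), a log2 fold change of 0.59 ± 0.12 (SE; 1.51-fold, 95% interval 1.24 to 1.83). It did not pass with edgeR (adjusted p = 0.121) and passed with DESeq2 (adjusted p = 0.00261) and with edgeR without a filter on low counts (adjusted p = 0.0281), a fit that called 0.665% of 67780 genes and 0.434% as higher. Over the 14 alternatives its adjusted p ran from 0.00261 to 0.428.

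The other members called by DESeq2 were a pair on chromosomes numbered 2. BnaA02T0335400WE had 937, 988 and 1117 CPM in the mutant libraries and 705, 757 and 803 CPM in the Westar libraries (log2 fold change 0.46 ± 0.11, edgeR adjusted p = 0.172, DESeq2 adjusted p = 0.0152). BnaC02T0439200WE had 1183, 1251 and 1379 CPM in the mutant libraries and 982, 988 and 1024 CPM in the Westar libraries (log2 fold change 0.39 ± 0.10, edgeR adjusted p = 0.21, DESeq2 adjusted p = 0.0426). In both genes every mutant library was above every Westar library, and over the 6 libraries the pair kept a ratio of 1.24 to 1.39 at an r of 0.988.

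BnaA01T0039700WE, the fourth member, had the lowest log2 fold change among members without overlap. It had 2401, 2995 and 3233 CPM in the mutant libraries and 3894, 3295 and 3990 CPM in the Westar libraries. The highest mutant library was just below the lowest Westar library. The mean was 2876 ± 429 CPM in the mutant and 3726 ± 377 CPM in Westar (SD, n = 3 each), a log2 fold change of -0.33 ± 0.13 that did not pass (edgeR adjusted p = 0.375, and 0.254 to 0.685 over 14 alternatives). A member on C01, BnaC01T0119800WE, ran in parallel with it at an r of 0.982 and was named for that reason. It had 1248, 1504 and 1806 CPM in the mutant libraries and 2002, 1768 and 2181 CPM in the Westar libraries, with an overlap of the groups and the lowest log2 fold change of all members, -0.34 ± 0.14 (edgeR adjusted p = 0.387).

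**Figure D4:**
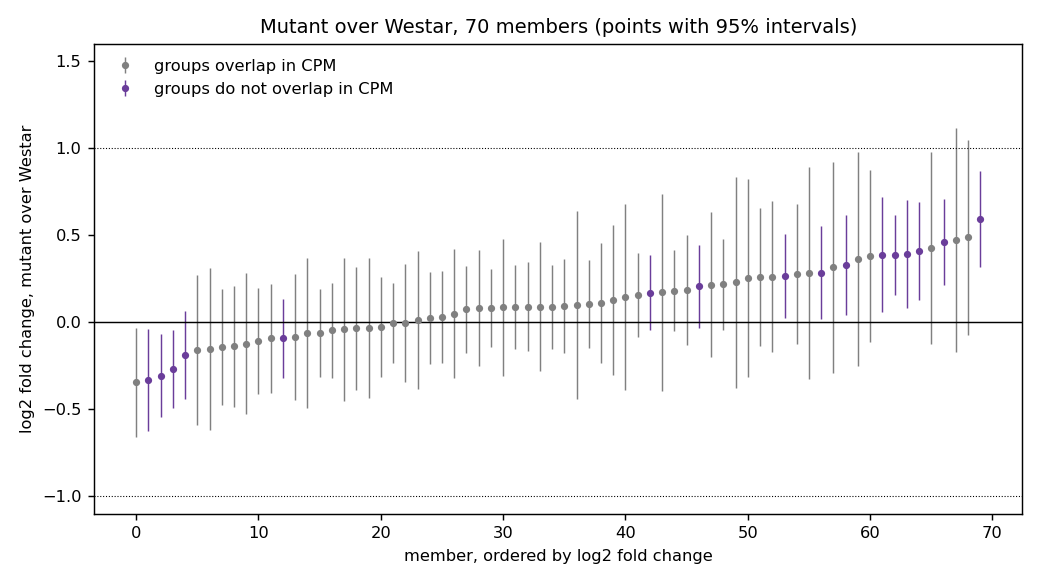
Log2 fold change, mutant over Westar, of the 70 members in rising order, with 95% intervals from the edgeR fit and dotted lines at a 2-fold change. Purple marks the 16 members whose groups do not overlap in CPM, and all points lie between -0.34 and 0.59.

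The members of both subgenomes gave like medians. The median log2 fold change was 0.09 for the 39 members on A, with 27 above 0, and 0.09 for the 31 on C, with 20 above 0. Over 1506 tested genes of A10 at 2 CPM or more, mutant library 3 was at a median of -0.32 against the median of the other 5 libraries, on the log2 scale, while all tested genes at that level were at 0.01. On A10, 2 of the 3 members were below the median of the other 5 libraries in that library, at -0.35 for BnaA10T0153600WE and -0.25 for BnaA10T0253500WE, and BnaA10T0289800WE was above it, at 0.10. Over the first 882 such genes of C09, Westar library 1 was at a median of -0.22, against 0.06 for all tested genes, and the 1 member there was BnaC09T0053900WE, at -0.46 in that library. The 2 members on the rest of C09, BnaC09T0586400WE and BnaC09T0413000WE, were at -0.65 and -0.07 in Westar library 1. Leaving out both of these libraries, a choice made with the data in view, 0 members were called.

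Counts of this depth left little counting error. The counting error of a member's CPM was 0.271% to 1.03% of its level, which covers sampling of reads only. The coefficient of variation between libraries of a group, averaged over both groups, exceeded it for all 70 members, by a median of 16.8 times and at the least by 2.49 times. Its median over the members was 12.9% (quartiles 7.68% and 18.6%), with medians of 12.9% in the mutant and 12.8% in Westar.

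The spread did not fall further at the top of the range. The median coefficient of variation was 20.3% for the 19036 genes at 1 to 10 CPM, 11.1% for the 17451 at 10 to 100 CPM, 8.82% for the 1038 at 100 to 500 CPM and 12.9% for the members. The members' median stayed above that of the 100 to 500 CPM genes in each of the 6 cases that left out 1 library, closest without mutant library 2 (11.04% against 9.45%) and without Westar library 2 (10.001% against 8.18%). Among the 12 genes of the leading gene's pattern the median was 26.5%, and among the other 58 members it was 10.4%. The 12 were chosen by r over these same libraries with a gene whose own coefficient was 27.8%. Part of the contrast may therefore come from that choice.

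Single members ranged widely. In 6 members the coefficient was under 5%, in 29 under 10% and in 15 it was 20% or more, and 8 of those 15 belonged to the leading gene's pattern. The steadiest was BnaA02T0033600WE, with 527, 523 and 550 CPM in the mutant and 499, 487 and 475 CPM in Westar. Its coefficient was 2.56% and its groups did not overlap, at a log2 fold change of 0.17 ± 0.10 (edgeR adjusted p = 0.526). Over the 6 libraries the highest value was at least 2 times the lowest in 9 members and less than 1.2 times in 6.

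**Figure D5:**
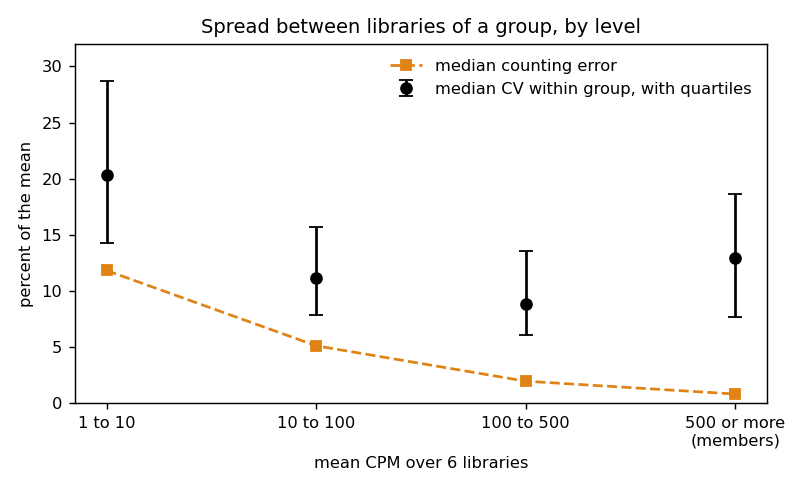
Median coefficient of variation within a group (points, with quartiles as bars, in percent of the mean) and median counting error (squares) for tested genes in 4 classes of mean CPM. The spread falls to 8.82% at 100 to 500 CPM and is 12.9% in the members, where the counting error is smallest.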

How the data were processed

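The deposited table holds unnormalized counts of reads in genes, with a column for each of the 6 libraries, which were assigned to groups by the sample titles. The submitters' processing notes name HISAT2 2.2.1 and featureCounts. Neither the genome build and annotation nor the strand setting and the handling of multi-mapping reads are stated there. CPM was computed as the count over the column sum, which was 15922207 to 23261028. Genotypes were compared with edgeR 4.0.16 in R 4.3.3 (quasi-likelihood F test, TMM scaling, filterByExpr with a minimum count of 10, genotype as the one term), with p-values adjusted by Benjamini-Hochberg over 48524 genes. All 70 members passed the filter. Standard errors came from the F statistic. The test was also run on simulated data, and the outcome is not reported here. Shares, spread and correlations were described without a test, the correlations on log2(CPM + 0.5). Alternatives used DESeq2 1.42.0, limma 3.58.1 (voom), other scalings, filters and member limits, a replicate block and left-out libraries. The rule named the 6 highest members, the 2 most extreme without overlap (no member being called), the 2 most and the 1 least variable, and the 2 on each side of the limit. The other IDs were chosen after their values were seen. The members and lists were chosen with earlier results of these data known.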

Additional observations from a re-analysis of the deposited data

How the results depend on the processing

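The count of members changed stayed at 0 in 17 of 19 alternatives, including each of the 6 that left out 1 library (0 to 0). Among the 17, the adjusted p under 0.01 and the limits of 1000 CPM and of 500 CPM in every library could not exceed 0. They cut the same fit or the same 70 members more narrowly. The fits without 1 library rest on fewer libraries, so a 0 there says less. The count was 1 with no filter on low counts (BnaC09T0586400WE, log2 fold change 0.59) and 3 with DESeq2 (where that gene was again at 0.59). These fits called 0.665% and 1.33% of their genes, against 0.194% with the filter and edgeR, and the cause was not tested. With the replicate number as a block it was 0, at a smallest adjusted p of 0.271. Same-numbered libraries deviated from their group means with correlations of -0.15, -0.09 and 0.15 over all tested genes and of -0.761, -0.765 and 0.373 over the members, which does not pair them. The difference in the share of counts stayed within 1 SD of 0.335 points in all 12 alternatives (-0.151 to 0.918 points). The difference in the A share, -0.245 points, became -0.684 with no chromosome or scaffold left out and 0.0828 without the 10 leading members, and ran from -0.383 to -0.0833 with 1 library left out. The median spread of 12.9% was 13.5% on TMM library sizes, 9.61% for members at 250 CPM or more, 18.1% at 1000 CPM or more, 11.2% without Westar library 1 and mutant library 3 (chosen after seeing the data), and 10.001% to 13.6% with 1 library left out. The spread between libraries exceeded the counting error in all 70 members.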
